A study of Mus musculus with 6 samples.

Results

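The 10 genes described here carry fatty acids from blood lipoproteins into the fat cell and activate them: Lpl, Gpihbp1, Angptl4, Vldlr, Cd36, Slc27a1, Slc27a4, Fabp4, Fabp5 and Acsl1. They were taken by gene symbol from the 23492 genes with reads, and 43 of their annotated transcripts had reads. Poly-A RNA of epididymal white fat was read as direct cDNA on a nanopore instrument, in 3 cold and 3 ctrl mice, and counted per transcript. Cold mice (7, 12 and 16) were kept alone at 4 °C for 24 h before the tissue was taken. Ctrl mice (5, 6 and 10) stayed in base housing at 22 to 24 °C. Whether ctrl mice were caged singly is not stated. All 6 were wild-type male C57BL/6N mice of 20 weeks, with no transgene or drug named. The series title speaks of brown fat, while every sample is labelled as epididymal white fat.

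Lipoprotein lipase, made by fat cells, splits the triglycerides of circulating lipoproteins on the capillary wall, where GPIHBP1 carries and holds it. ANGPTL4 inactivates the enzyme, and the VLDL receptor binds the lipoprotein particles. Freed fatty acids cross the membrane with the help of CD36 and the SLC27 transport proteins, are carried by FABP4 and FABP5, and are joined to coenzyme A by ACSL1, which commits them to storage or oxidation. Brown fat is known to take up much lipoprotein fatty acid in the cold, whereas white fat is known to release fatty acids then.

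Long reads can tell transcripts of a gene apart, and 3 choices of exon in these genes are shown by the bases that separate them, all on GRCm38 and 5′ to 3′ along the gene. Acsl1 transcripts contain either of 2 coding exons of 78 bases, at chr8:46521268-46521345 or chr8:46521410-46521487 on the plus strand, which share 42 bases (53.8%). Capitals mark the bases that differ.
Acsl1-201 and Acsl1-203 exon: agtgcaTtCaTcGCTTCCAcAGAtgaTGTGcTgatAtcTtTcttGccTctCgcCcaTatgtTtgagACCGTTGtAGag
Acsl1-202 exon: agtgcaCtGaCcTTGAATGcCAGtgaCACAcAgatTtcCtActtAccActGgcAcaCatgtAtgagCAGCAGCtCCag

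Vldlr-207 contains an 84-base exon at chr19:27246593-27246676, plus strand, that Vldlr-208, Vldlr-201 and Vldlr-202 skip. It is known to code for the stretch of the receptor that carries O-linked sugars. The exon is in capitals between the 15 bases on either side, and the second line shows those neighbours joined.
Vldlr-207: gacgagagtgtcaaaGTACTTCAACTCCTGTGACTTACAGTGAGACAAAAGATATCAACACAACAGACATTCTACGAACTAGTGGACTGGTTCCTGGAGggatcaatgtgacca
Vldlr-208: gacgagagtgtcaaaggatcaatgtgacca

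Coding transcripts of Gpihbp1 part at the last splice junction, where 30 bases of the shared exon meet 30 bases of 3 different last-exon starts, in capitals. These starts lie on the plus strand at chr15:75597730-75597759 for Gpihbp1-201, chr15:75598091-75598120 for Gpihbp1-204 and chr15:75598147-75598176 for Gpihbp1-203. The reading frame is 684 bases long in Gpihbp1-201, 369 in Gpihbp1-204 and 333 in Gpihbp1-203.
Gpihbp1-201: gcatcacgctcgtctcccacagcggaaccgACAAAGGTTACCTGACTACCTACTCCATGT
Gpihbp1-204: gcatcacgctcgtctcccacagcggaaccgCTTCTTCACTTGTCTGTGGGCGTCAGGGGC
Gpihbp1-203: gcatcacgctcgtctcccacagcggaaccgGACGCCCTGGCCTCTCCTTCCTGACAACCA

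The carriers Fabp4 and Fabp5 are related genes, so it matters whether their reads can be told apart. In exon 2 of the coding sequence 59.5% of bases were identical, and in exon 3, shown with differing bases in capitals, 66 of 102 were (64.7%). Exon 3 lies at chr3:10205241-10205342 on the minus strand in Fabp4 and at chr3:10015472-10015573 on the plus strand in Fabp5.
Fabp4 exon 3: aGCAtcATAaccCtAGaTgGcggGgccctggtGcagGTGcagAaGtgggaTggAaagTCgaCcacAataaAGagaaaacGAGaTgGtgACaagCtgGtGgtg
Fabp5 exon 3: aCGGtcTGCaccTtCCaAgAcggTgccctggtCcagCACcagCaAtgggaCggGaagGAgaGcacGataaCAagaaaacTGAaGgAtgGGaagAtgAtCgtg
Closer copies exist for Fabp5: Fabp5l2, Gm13998, Gm14328, Gm6100 and Gm6166 match it over at least 300 bases at 93.6% to 98.3%, and each was listed with 0 reads in all mice. Gm18957 matches Acsl1 at 86.1% and also had 0 reads. The values of Fabp5 and Acsl1 are uncertain to the extent that the counting could move reads between such copies. Gm45244 overlaps Acsl1 on the opposite strand and had 7 reads.

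Libraries held 726283 to 1194134 reads in cold mice and 939107 to 1341592 in ctrl mice. Expression is given as CPM, a gene's counts scaled by the reads assigned to genes in its library, and is not scaled by length. Cold and ctrl mice are compared within a gene or a summed list, and different genes only as counts or shares of reads. The labelled tissue carried its markers: Adipoq, the adiponectin gene, averaged 3039 ± 338 CPM in cold and 3449 ± 351 CPM in ctrl mice (SD, n = 3 each). The summed level of 12 fat-cell markers was 29971 to 32638 CPM in cold and 35335 to 37761 CPM in ctrl mice, and that of 12 capillary endothelial markers 1667 to 1883 and 1955 to 2108 CPM. Neither pair of ranges overlaps, but without Cfd, the adipsin gene, the other fat-cell markers summed to 19898 to 21055 CPM in cold and 19867 to 21279 CPM in ctrl mice, which overlap. Without Rgcc, its marker with the most reads, the endothelial sum was 1015 to 1201 CPM in cold and 1310 to 1336 CPM in ctrl mice, which do not. The next marker by reads, Aqp7, had 215 to 302 CPM in cold and 310 to 379 CPM in ctrl mice. With Aqp7 left out as well, the endothelial sums of cold and ctrl mice overlapped. All of these omissions were chosen after the data were seen. Of the 12 fat-cell markers only Pnpla2, the gene of adipose triglyceride lipase, passed the test, at 1912 ± 91.8 CPM in cold and 1243 ± 90.0 CPM in ctrl mice (edgeR adjusted p = 0.00971). Its adjusted p was 0.0640 without ctrl 6, 0.0958 without cold 12 and 0.0564 with protein-coding transcripts alone. Sums for 12 macrophage markers (732 to 1375 and 1005 to 1186 CPM), 12 precursor and fibroblast markers (2486 to 3572 and 2241 to 3348 CPM) and 10 mesothelial markers (74.6 to 181 and 87.4 to 231 CPM, with Krt5 at 0 reads) overlapped between cold and ctrl mice. The epididymis next to this fat pad contains epithelium. The 12 epithelial markers summed to 163 to 339 CPM in cold and 26.9 to 73.6 CPM in ctrl mice, and 5 of the 6 tested rose (Epcam, Cldn7, Krt8, Krt18 and Lrp2). Of these, Epcam did not pass in DESeq2 (adjusted p = 0.245), nor Cldn7 without cold 12 (0.0821). Krt19, also tested, overlapped between the groups. Among those not tested, Krt7 had 15 reads in cold and 32 in ctrl mice. Cdh1, Elf3, Spint1 and Cdh16 had more reads in cold mice, and Cldn4 was nearly absent. The part of any of these cell types in the results below was not tested, and in bulk tissue fewer cells of a type cannot be told apart from less RNA per cell.

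None of the 10 genes passed the test in the cold, while Slc27a1, both carriers and Acsl1 lay higher in every cold mouse. By edgeR's quasi-likelihood test, with Benjamini-Hochberg adjustment over all 9772 genes tested, 0 of 10 had an adjusted p under 0.05, beside 64 of all genes (0.655%). DESeq2 and limma-voom called 0 of 10 as well (0.471% and 0.491% of all genes). At an unadjusted p under 0.05 there were 4, Acsl1, Slc27a1, Fabp5 and Fabp4, all higher in the cold, where 8.43% of all genes had such a p and 4.72% in that direction. The CPM of cold and ctrl mice did not overlap for these 4 genes, higher in the cold (5.96% of all genes), nor for Vldlr, lower in the cold (7.7%, and 13.7% in either direction). The fitted log2 fold change was above 0 for 7 of 10 genes (50.8% of all genes), with a median of 0.21 against 0.0057 over all genes tested. Summed, the 10 genes took 3.89%, 4.03% and 3.79% of gene reads in cold 7, 12 and 16. They took 3.12%, 3.63% and 3.62% in ctrl 5, 6 and 10, and most of these reads came from Fabp4 and Lpl. Fabp4 alone had 22334 to 23455 CPM in cold and 16378 to 19789 CPM in ctrl mice. Without Fabp4, an omission chosen after the data were seen, the sums of cold and ctrl mice overlapped. The counts of this paragraph describe a list drawn up with results of these data known, and are no independent evidence of a direction.

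**Figure D1:**
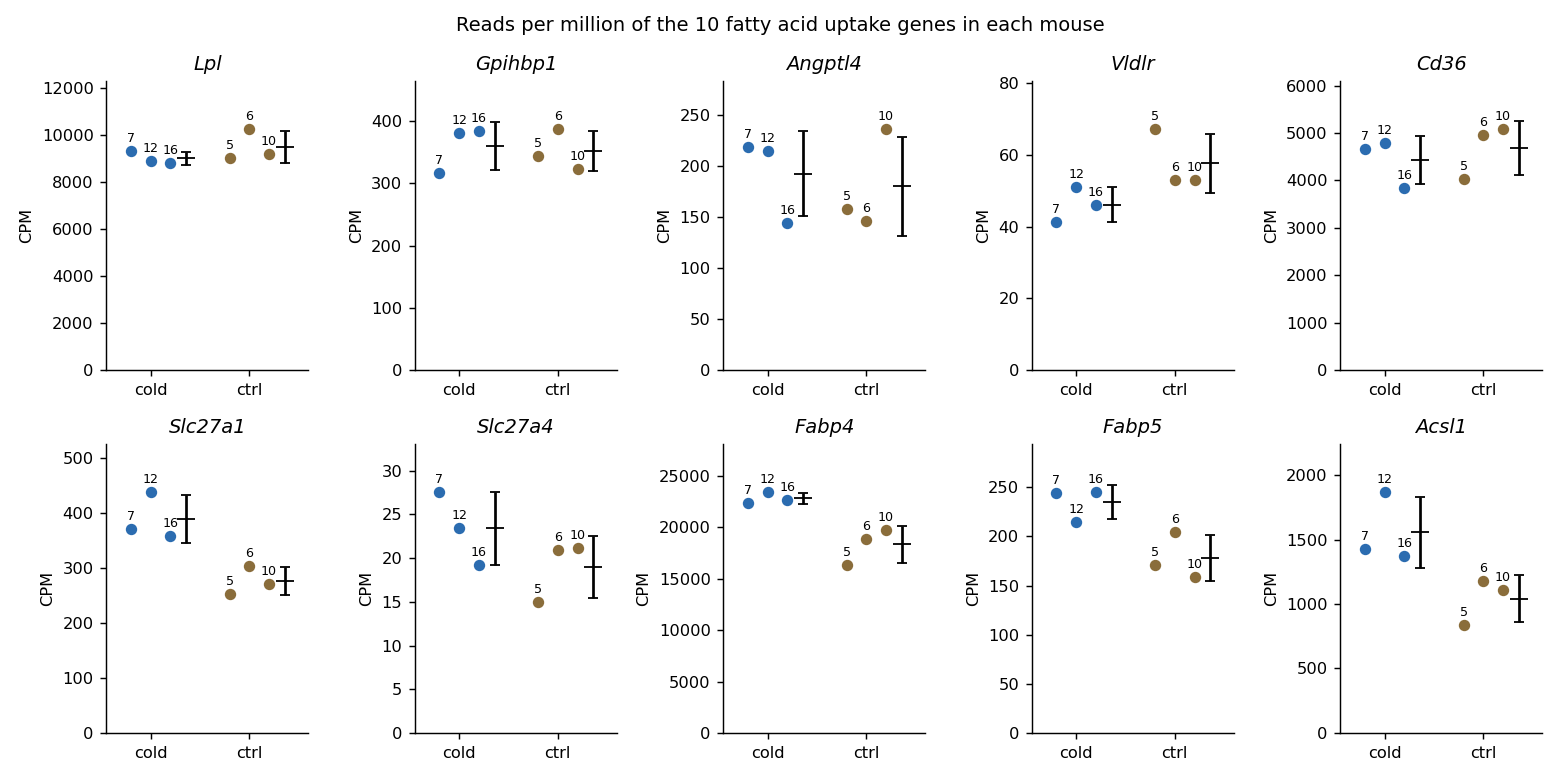
CPM (counts scaled by the gene reads of the library, axes from 0) of each of the 10 genes in the 3 cold mice (left) and the 3 ctrl mice (right), each point a mouse with its number, with the mean and SD as bars. Cold and ctrl points are apart for Slc27a1, Fabp4, Fabp5 and Acsl1, with cold higher, and for Vldlr, with cold lower.

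**Figure D2:**
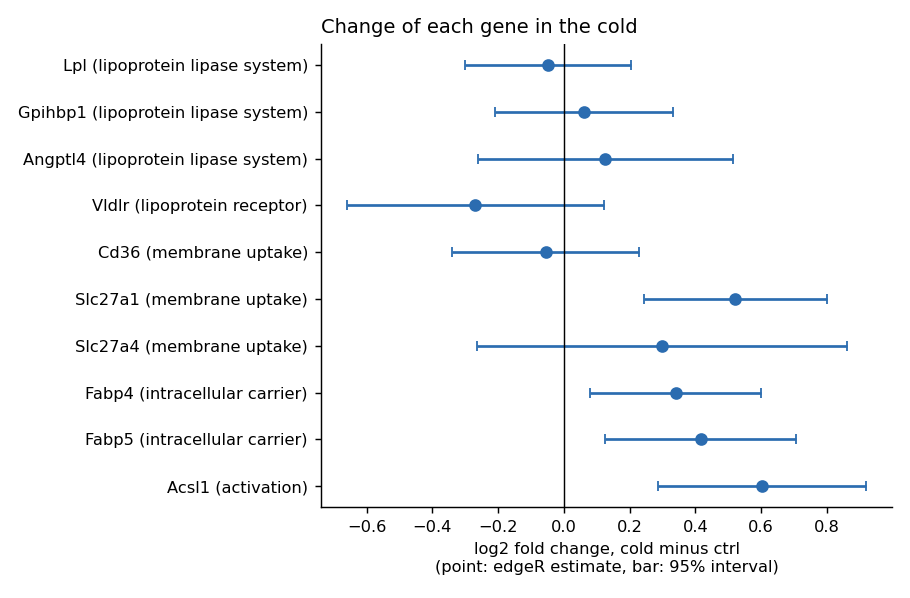
Log2 fold change, cold minus ctrl, of each gene with its 95% interval from edgeR, which is not adjusted for the number of genes. The intervals of Slc27a1, Fabp4, Fabp5 and Acsl1 lie above 0 and the other 6 include it.

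No gene of the lipoprotein lipase system passed the test or separated cold from ctrl mice. Lpl (ENSMUSG00000015568.16, chr8:68880491-68907448, plus strand), the lipase itself, had 9290, 8873 and 8808 CPM in cold mice 7, 12 and 16, and 8989, 10230 and 9192 CPM in ctrl mice 5, 6 and 10. Cold and ctrl mice overlapped, and ctrl 6 was the highest of all. The log2 fold change was -0.048 ± 0.12 (SE, edgeR adjusted p = 0.961), and 0.0058 without ctrl 6. Its 95% interval ran from 0.812-fold to 1.15-fold. Reads lay almost wholly on Lpl-201, the full coding transcript, with 97.1 ± 0.36% in cold and 97.5 ± 0.13% in ctrl mice. Lpl-203 ends in another last exon and is annotated as a target of nonsense-mediated decay. It took 2.40%, 2.58% and 3.09% of Lpl reads in cold mice 7, 12 and 16, and 2.14%, 2.35% and 2.35% in ctrl mice 5, 6 and 10. The groups did not overlap, but the test of its usage gave an unadjusted p of 0.211 by edgeR, and the transcript was picked after its values were seen.

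Gpihbp1 (ENSMUSG00000022579.10, chr15:75596628-75599481, plus strand), the carrier of the lipase on capillaries, had 316, 381 and 383 CPM in cold mice and 344, 387 and 323 CPM in ctrl mice. The groups overlapped, and the log2 fold change was 0.061 ± 0.13 (edgeR adjusted p = 0.957). The capillary markers Pecam1 and Cdh5 averaged 113 ± 13.8 and 207 ± 37.2 CPM in cold mice, against 106 ± 8.83 and 248 ± 36.7 CPM in ctrl mice. Of the last-exon choices printed above, Gpihbp1-201 took 81.3 ± 3.46% of Gpihbp1 reads in cold and 77.8 ± 3.27% in ctrl mice. Among its coding transcripts, the shorter frames of Gpihbp1-204 and Gpihbp1-203 together held 13.5%, 12.4% and 20.3% in cold mice 7, 12 and 16, and 21.8%, 17.6% and 13.7% in ctrl mice 5, 6 and 10. Both groups thus contain a mouse near 20% and mice well under it.

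Angptl4 (ENSMUSG00000002289.16, chr17:33773750-33781830, minus strand), the inhibitor of the lipase, spread most between mice of a group, with 218, 215 and 144 CPM in cold mice and 158, 146 and 236 CPM in ctrl mice. The highest mouse was ctrl 10 and the lowest cold 16. Its log2 fold change was 0.13 ± 0.19 (edgeR adjusted p = 0.923) and lay between -0.017, without ctrl 6, and 0.37 when single mice were left out. Angptl4-202, a transcript annotated for nonsense-mediated decay, held 3.80%, 5.47% and 10.6% of the reads in cold mice and 5.41%, 2.04% and 7.49% in ctrl mice. The 95% interval of the gene, 0.833-fold to 1.43-fold, is wider than that of Lpl.

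Vldlr (ENSMUSG00000024924.14, chr19:27216484-27254231, plus strand), the lipoprotein receptor, was the gene with the lowest fold change. It had 41.4, 51.2 and 46.0 CPM in cold mice and 67.2, 53.0 and 53.0 CPM in ctrl mice, so that every cold mouse was below every ctrl mouse, cold 12 by a small margin. The log2 fold change of -0.27 ± 0.19 did not pass (edgeR adjusted p = 0.788), with 127 reads in cold and 194 in ctrl mice in all. Vldlr-207, which has the 84-base exon printed above, was assigned 12 of 29 reads (41.4%, Wilson 95% interval 25.5% to 59.3%) in cold 7. It held 46 of 59 (78.0%, 65.9% to 86.6%) in cold 12 and 20 of 34 (58.8%, 42.2% to 73.6%) in cold 16. In ctrl mice it held 38 of 63 (60.3%), 47 of 67 (70.1%) and 38 of 56 (67.9%). Vldlr-207 also ends farther downstream, at chr19:27254231, than Vldlr-208, Vldlr-201 and Vldlr-202, at chr19:27249862, 27249763 and 27249727. These shares therefore do not isolate the choice of exon. Cold mice lay on both sides of the ctrl mice, with means of 59.4 ± 18.3% in cold and 66.1 ± 5.14% in ctrl mice. Reads were assigned to transcripts with and without the exon in every mouse. A difference in their share was not tested, since only Vldlr-207 passed the filter on low counts.

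At the membrane, Slc27a1 lay higher in every cold mouse, while Cd36 and Slc27a4 overlapped between groups. Cd36 (ENSMUSG00000002944.15, chr5:17781690-17888801, minus strand), the main fatty acid translocase of fat cells, had 4658, 4785 and 3849 CPM in cold mice and 4026, 4953 and 5081 CPM in ctrl mice. Each group held a mouse below the rest, cold 16 and ctrl 5, and the groups overlapped. The log2 fold change was -0.056 ± 0.14 (edgeR adjusted p = 0.961), 0.043 without cold 16 and 0.0080 without ctrl 10. Its 5 coding transcripts with at least 10 reads have the same 1416-base reading frame and differ in the first exons. They also differ at the 3′ end, between chr5:17781690 and chr5:17782486, so the shares below do not isolate the first exon. The transcript with the first exon farthest upstream was assigned 22.4% to 22.7% of reads in cold and 22.3% to 22.6% in ctrl mice. Those with the middle one held 47.5% to 49.2% in cold and 48.3% to 48.9% in ctrl mice. Those with the one nearest the coding exons held 28.4% to 30.1% and 28.8% to 29.2%. Each of the 3 shares thus differed little between mice.

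Slc27a1 (ENSMUSG00000031808.7, chr8:71568882-71587302, plus strand) codes for FATP1, a fatty acid transport protein with acyl-CoA synthetase activity. It had 371, 439 and 359 CPM in cold mice and 253, 305 and 272 CPM in ctrl mice. Every cold mouse was above every ctrl mouse, and cold 12 was the highest. The fold of 1.43 (95% interval 1.18 to 1.74, log2 0.52 ± 0.13) had an unadjusted p of 0.000908 and an adjusted p of 0.0997 by edgeR, rank 89 of all genes. It passed without cold 16 (adjusted p = 0.0431, 0.671% of all genes called) and with no filter on low counts (adjusted p = 0.0344, 1.58% called), and its adjusted p was 0.487 without cold 12. The difference was spread over its transcripts: log2 fold changes were 0.51 ± 0.17 for Slc27a1-202, 0.57 ± 0.20 for Slc27a1-205, 0.56 ± 0.18 for Slc27a1-201 and 0.41 ± 0.33 for Slc27a1-207, none past the adjusted threshold of the same test. Slc27a1-202 and Slc27a1-205 are annotated as retaining introns. With Slc27a1-203 they took 57.6%, 65.2% and 70.1% of the reads in cold mice and 69.6%, 62.3% and 61.7% in ctrl mice. The means were 64.3 ± 6.29% and 64.5 ± 4.43%. Slc27a1-202 and Slc27a1-205 also end farther downstream, at chr8:71587302 and 71587301, than Slc27a1-201 and Slc27a1-207, at chr8:71586708 and 71586705. These shares therefore do not isolate retained introns.

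Slc27a4 (ENSMUSG00000059316.2, chr2:29802634-29817522, plus strand), which codes for the related protein FATP4, was read from a single transcript and was sparse, with 63 reads in cold and 66 in ctrl mice. It had 27.6, 23.5 and 19.2 CPM in cold mice and 14.9, 20.9 and 21.2 CPM in ctrl mice. The groups overlapped, and the log2 fold change of 0.30 ± 0.27 (edgeR adjusted p = 0.861) has an interval from 0.832-fold to 1.82-fold. That interval includes the fold of Slc27a1, and whether the transporters differ in response was not tested.

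Both carriers lay higher in every cold mouse. Fabp4 (ENSMUSG00000062515.3, chr3:10204088-10208576, minus strand), the abundant fatty acid binding protein of fat cells, had 22334, 23455 and 22667 CPM in cold mice and 16378, 18868 and 19789 CPM in ctrl mice. The cold mice were within a narrow band, while ctrl 5 was below the other ctrl mice. The fold was 1.27 (95% interval 1.06 to 1.52, log2 0.34 ± 0.12), with an unadjusted p of 0.0132 and an adjusted p of 0.387 by edgeR. Fabp5 (ENSMUSG00000027533.10, chr3:10012548-10016607, plus strand), a related carrier also made by macrophages and endothelium, had 244, 215 and 245 CPM in cold mice and 171, 205 and 159 CPM in ctrl mice. Cold 12 and ctrl 6 came close to each other, and the other mice were well apart. The fold was 1.33 (1.09 to 1.63, log2 0.42 ± 0.14), with an unadjusted p of 0.00759 and an adjusted p of 0.318 by edgeR. The macrophage markers Adgre1 and Cd68 averaged 24.7 ± 5.02 and 43.6 ± 19.0 CPM in cold mice and 28.5 ± 9.19 and 43.9 ± 8.99 CPM in ctrl mice.

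Part of the carrier reads was assigned to transcripts annotated as retaining introns. Fabp4-202, a single-exon transcript that runs through the introns, held 11.7%, 12.1% and 17.0% of Fabp4 reads in cold mice 7, 12 and 16, and 13.8%, 12.6% and 15.1% in ctrl mice 5, 6 and 10. Fabp5-202, which retains introns, held 15.8%, 12.9% and 22.4% of Fabp5 reads in cold mice and 8.12%, 12.4% and 15.6% in ctrl mice. Cold 16 was the highest for both, and in this library transcripts of the retained-intron type took 4.38% of all reads, against 3.25% and 3.56% in the other cold mice and 3.38% to 3.63% in ctrl mice. Its part in these shares was not tested. The protein-coding transcripts alone, Fabp4-201 and Fabp5-201, had log2 fold changes of 0.35 ± 0.13 and 0.33 ± 0.16, neither past the adjusted threshold of edgeR.

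**Figure D3:**
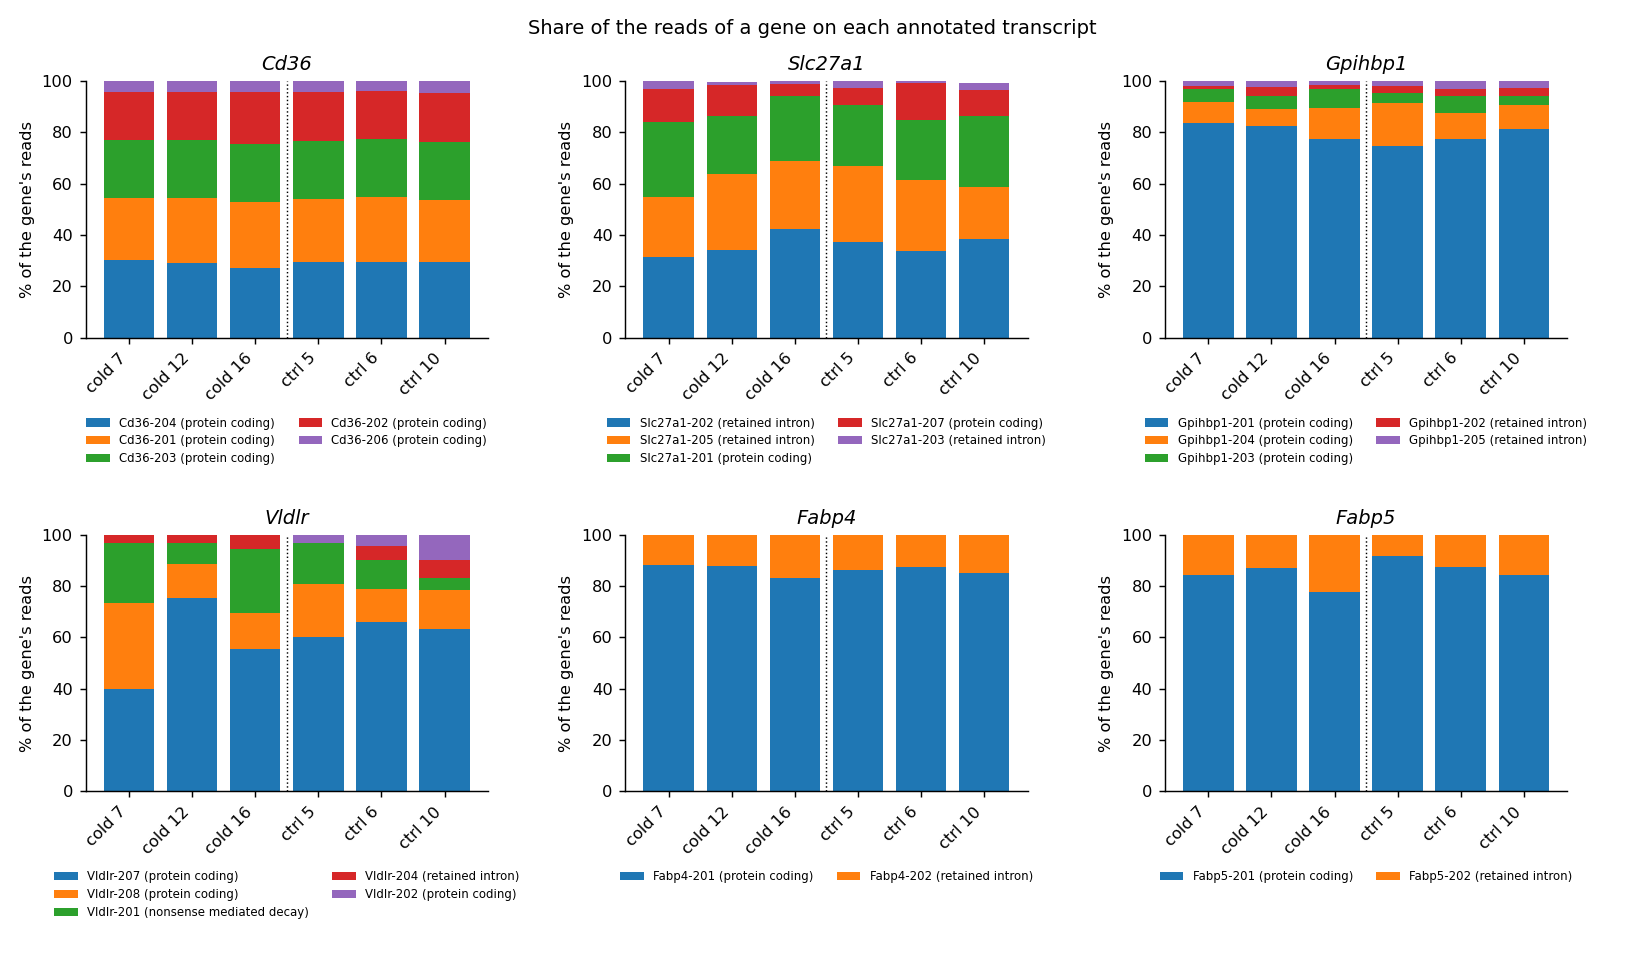
Share of a gene's reads, in percent, on each annotated transcript with at least 10 reads, for 6 of the genes, with cold mice left of the dotted line and ctrl mice right of it. Shares of Cd36 are nearly level over the mice, while Vldlr, with 29 to 67 reads a mouse for its exon choice, varies most.

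Acsl1 (ENSMUSG00000018796.13, chr8:46471037-46536051, plus strand), the main long-chain acyl-CoA synthetase of fat cells, had the highest fold change of the 10 genes. It had 1426, 1869 and 1369 CPM in cold mice and 834, 1177 and 1112 CPM in ctrl mice. Every cold mouse was above every ctrl mouse, with cold 12 highest and ctrl 5 lowest. The fold was 1.52 (95% interval 1.22 to 1.89, log2 0.60 ± 0.15), with an unadjusted p of 0.000808 and an adjusted p of 0.0908 by edgeR, rank 87 of all genes. It passed without cold 16 (adjusted p = 0.0264), without cold 7 (0.0404, with 1.88% of all genes called), with the X1 files alone (0.0418, 0.587% called) and with no filter on low counts (0.00273). Without cold 12 its adjusted p was 0.499. The fold stayed higher in the cold in all 14 alternatives, between log2 0.45 and 0.69.

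Most Acsl1 reads lay on Acsl1-201, with 982, 2141 and 973 reads in cold mice and 741, 1496 and 1193 in ctrl mice. Its log2 fold change was 0.60 ± 0.17 (edgeR adjusted p = 0.213 over 12325 transcripts, and 0.0139 without cold 16, where 0.518% of transcripts were called). Acsl1-203 begins at a first exon farther downstream. Of the reads of Acsl1-201 and Acsl1-203 together, Acsl1-203 held 3.82%, 3.34% and 6.62% in cold mice 7, 12 and 16. It held 4.14%, 4.10% and 3.79% in ctrl mice 5, 6 and 10. Acsl1-202, which carries the second of the alternative coding exons printed above, was assigned 8, 11 and 27 reads in cold mice and 5, 6 and 11 reads in ctrl mice. As a share of the reads of Acsl1-201, Acsl1-203 and Acsl1-202 together, that was 0.78%, 0.49% and 2.53% in cold mice. In ctrl mice it was 0.64%, 0.38% and 0.88%, so cold 16 stood apart and the other cold mice overlapped with ctrl mice. The unadjusted p of its usage, 0.0865 by edgeR, was the smallest of any transcript of the 10 genes. Acsl1-203 and Acsl1-202 were chosen for description after their values were seen.

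Across transcripts the picture was like that of the genes. Of 43 transcripts with reads, 36 had at least 10 and 27 passed the filter on low counts, and 0 of these 27 passed edgeR's adjusted threshold, beside 47 of 12325 (0.381%). DESeq2 and limma-voom called 0 as well (0.308% and 0.333% of all transcripts). An unadjusted p under 0.05 was found for 9, all higher in the cold (6.87% of all transcripts in either direction). These 9 belong to Slc27a1, Fabp4, Fabp5 and Acsl1. For the share of reads per transcript, 8 of the genes could be tested, and 0 were called by edgeR's Simes test (0 of 2624 genes in all, 0%) with 0 at an unadjusted p under 0.05 (0.953% of all genes). How the counting assigned a read that matches several transcripts is not given in the sources used here, which limits every share above.

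The starts of the 2 genes with the smallest p are shown because reads were assigned to Acsl1 transcripts annotated to begin at 2 of them. Where a read begins was not examined. Acsl1-203 and Acsl1-201 also differ in their ends, at chr8:46535581 and chr8:46536051. From RefSeq on GRCm38.p6, promoter entries matched 5 of the 10 genes (9 promoters), and the 250 bases before a start are printed. Capitals mark GC boxes, spelled GGGCGG, and CCAAT boxes, searched by those letters on both strands, and no marked match overlaps another. Acsl1 has entries at chr8:46470787-46471036, ending where Acsl1-201 begins, and chr8:46490716-46490965, ending where Acsl1-203 begins. Of 3 entries for Slc27a1, the one shown, at chr8:71568621-71568870, ends 11 bases before Slc27a1-207. All lie on the plus strand.
Acsl1 promoter of Acsl1-201: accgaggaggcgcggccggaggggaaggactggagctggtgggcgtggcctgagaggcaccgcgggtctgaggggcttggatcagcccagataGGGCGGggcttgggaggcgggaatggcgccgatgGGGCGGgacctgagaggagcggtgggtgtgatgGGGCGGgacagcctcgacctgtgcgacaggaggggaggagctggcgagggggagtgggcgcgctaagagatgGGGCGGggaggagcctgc
Acsl1 promoter of Acsl1-203: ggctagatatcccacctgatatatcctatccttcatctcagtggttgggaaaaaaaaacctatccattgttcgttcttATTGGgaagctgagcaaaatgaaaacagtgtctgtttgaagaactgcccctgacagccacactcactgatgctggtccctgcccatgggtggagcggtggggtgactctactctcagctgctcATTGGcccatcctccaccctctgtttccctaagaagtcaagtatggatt
Slc27a1 promoter of Slc27a1-207: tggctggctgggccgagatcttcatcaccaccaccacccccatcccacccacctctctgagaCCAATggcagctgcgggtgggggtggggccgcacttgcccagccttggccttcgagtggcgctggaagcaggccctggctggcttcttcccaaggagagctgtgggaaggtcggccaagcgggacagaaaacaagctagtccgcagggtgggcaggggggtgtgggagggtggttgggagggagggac
The promoter of Acsl1-201 held 4 GC boxes at 72% G and C, and that of Acsl1-203 held 2 CCAAT boxes at 48.4%. That of Slc27a1-207 held 1 CCAAT box at 66.4%. The other entries for Slc27a1, not printed, held 1 GC box at 60.8%, and 3 GC boxes, 1 CCAAT box and 1 E box, spelled CACGTG, at 58.4%. Over 32851 promoters of the same length the median was 52.4% G and C, and 32.74% held a GC box and 33.85% a CCAAT box. The nuclear receptor half-site AGGTCA (14.0% of promoters) and the TATA box TATAAA (12.4% of promoters) were searched the same way and were not in the 3 windows printed. These matches describe the letters only.

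**Figure D4:**
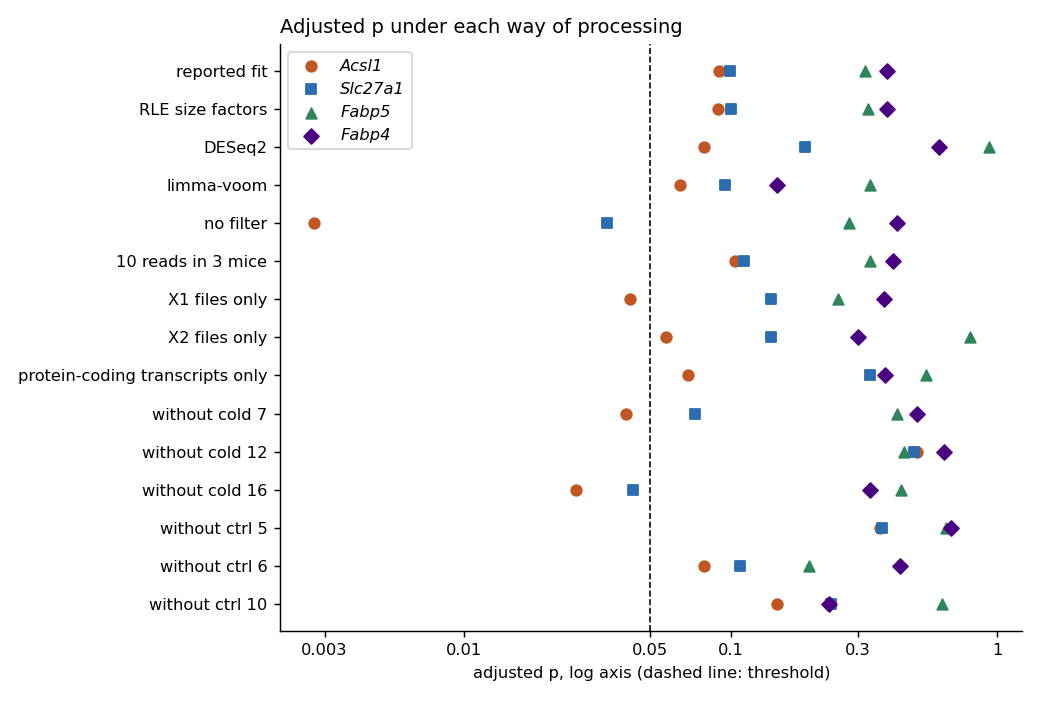
Adjusted p (log axis, dashed line at 0.05) of Acsl1, Slc27a1, Fabp5 and Fabp4 in the reported fit and under 14 other ways of processing, 1 row each, with cold mice left out above ctrl mice. Acsl1 lies left of the line in 4 rows and Slc27a1 in 2, while Fabp5 and Fabp4 stay right of it.

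Beyond the 10 genes, 79 other genes of the same path were listed by role, of which 49 passed the filter on low counts. Of these, 2 rose (Acsbg1 and Acot1), 0 fell and 47 did not pass edgeR's adjusted threshold, beside 53 higher (0.542%) and 11 lower among all genes. At an unadjusted p under 0.05 there were 5 higher and 2 lower, limma-voom called 1, and the median log2 fold change was 0.070 against 0.0057 over all genes.

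Acsbg1, an acyl-CoA synthetase of the bubblegum family known from brain, adrenal gland and gonads, had 13.8, 40.3 and 25.5 CPM in cold mice and 2.13, 1.49 and 0.883 CPM in ctrl mice. All cold mice were far above all ctrl mice, from 78 reads in cold and 5 in ctrl mice (log2 4.17 ± 0.52, edgeR adjusted p = 8.8e-05). Acot1, a cytosolic thioesterase that splits acyl-CoA again, had 11.0, 21.8 and 16.6 CPM in cold mice and 6.40, 2.24 and 0.883 CPM in ctrl mice, from 47 and 10 reads (log2 2.52 ± 0.49, edgeR adjusted p = 0.0131). Acot1 has close relatives in the same gene cluster, between which the counting could split reads. Its call was lost without cold 12 (adjusted p = 0.307), ctrl 6 (0.108) or ctrl 10 (0.117) and in limma-voom (0.0554). The epithelial marker Epcam moved with both, at 30.3 ± 16.6 CPM in cold and 1.42 ± 2.46 CPM in ctrl mice, and its part was not tested. Acsl5, another long-chain synthetase, had 24.8, 28.5 and 28.1 CPM in cold and 35.2, 37.3 and 45.9 CPM in ctrl mice (log2 -0.51 ± 0.22, edgeR adjusted p = 0.539). Acot13, a thioesterase of mitochondria and cytosol, had a log2 fold change of 0.53 ± 0.20 (adjusted p = 0.406, same test).

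Other lipase regulators gave 0 of 14 past the threshold. Angptl8, a partner of the ANGPTL inhibitors, had 4.14, 25.2 and 38.3 CPM in cold and 5.33, 10.5 and 11.5 CPM in ctrl mice. These come from 63 reads in cold and 32 in ctrl mice. Cold 7 was below every ctrl mouse, though with 3 reads against 5 in ctrl 5, and the other cold mice were above them all. The log2 fold change was 1.32 ± 0.46 (edgeR adjusted p = 0.357). Without cold 7 Angptl8 passed (0.00351, with 1.88% of all genes called), as it did with no filter (0.0101, 1.58% called). Sorl1, which codes for a sorting receptor known to bind the lipase, had a log2 fold change of 0.63 ± 0.33 (adjusted p = 0.661, same test).

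Among the lipoprotein receptors 0 of 4 passed. Scarb1, the HDL receptor, had 106, 117 and 102 CPM in cold and 154, 154 and 116 CPM in ctrl mice (log2 -0.35 ± 0.15, edgeR adjusted p = 0.534). Of 6 genes of membrane transport and CD36 palmitoylation, 0 passed. The nearest were Lypla1, a thioesterase that removes palmitate from proteins, at 0.37 ± 0.17 (edgeR adjusted p = 0.573), and Got2, the mitochondrial aspartate aminotransferase also known as a membrane fatty acid binder, at 0.38 ± 0.20 (adjusted p = 0.661, same test). The 5 other carriers tested gave 0, with Acbd4, an acyl-CoA binding protein, at 0.24 ± 0.18 (edgeR adjusted p = 0.813) and the sterol carrier Scp2 at -0.10 ± 0.13 (adjusted p = 0.917, same test).

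The transcriptional regulators that control many genes of this path gave 0 of 6 past the threshold, with log2 fold changes from -0.057 to 0.12. Pparg, the master regulator of fat cells, had 208, 201 and 197 CPM in cold and 213, 199 and 230 CPM in ctrl mice (log2 -0.057 ± 0.13, edgeR adjusted p = 0.959). Cebpa had 698, 712 and 786 CPM in cold and 661, 694 and 693 CPM in ctrl mice (log2 0.12 ± 0.12, edgeR adjusted p = 0.877). Every cold mouse was above every ctrl mouse, cold 7 by a small margin, as held for 5.96% of all genes.

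**Figure D5:**
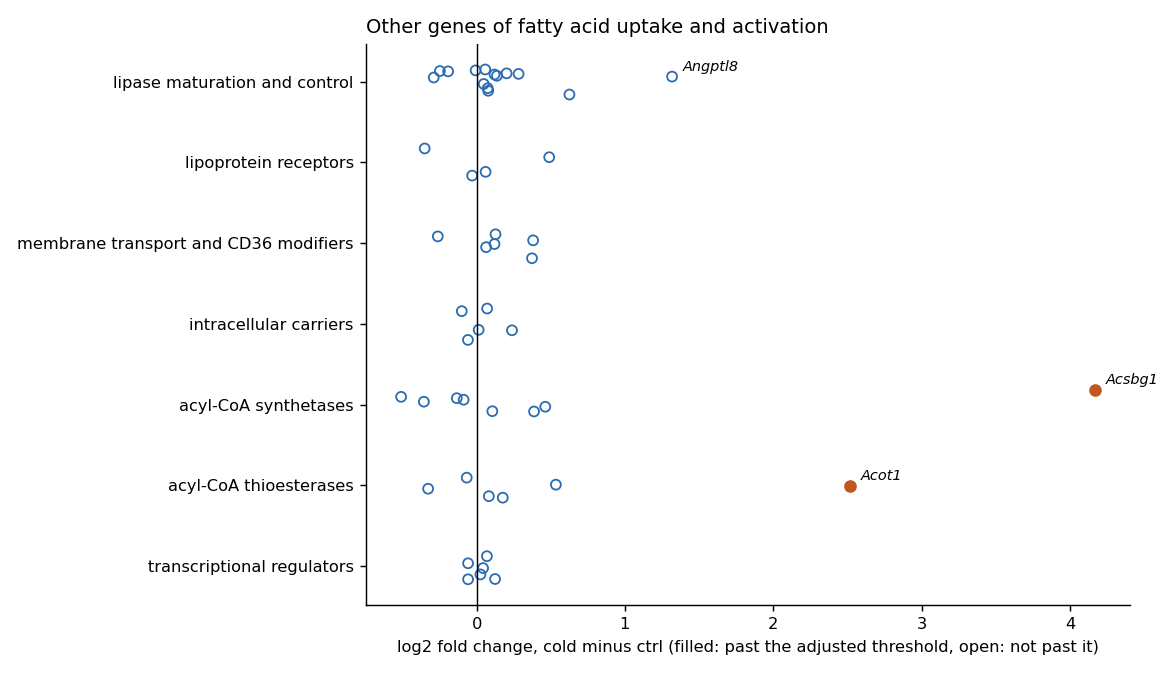
Log2 fold change, cold minus ctrl, of the 49 tested genes of the wider list, 1 row per role and 1 point per gene, filled where edgeR's adjusted p was under 0.05. Acsbg1 and Acot1 are filled, Angptl8 stands apart unfilled, and the other points lie between -0.51 and 0.63.

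For each of the 10 genes, the gene with the most similar pattern over the 6 mice was sought among 3278 genes with at least 50 CPM on average, by the root mean square (RMS) difference of centred log2 CPM. Acsl1 lay nearest to Tmbim4 (RMS 0.057) and Slc27a1 to Slc3a2 (0.072). Fabp4 lay nearest to Parl (0.043) and Fabp5 to Lypla1 (0.043). Lpl and Gpihbp1, which hardly varied, had the closest matches, Mapre1 (0.027) and Rad23b (0.030), and Angptl4 the most distant one, Sdc4 (0.106). Cd36 lay nearest to Rtf2 (0.043), Vldlr to Coq2 (0.057) and Slc27a4 to Hprt (0.084). Such likeness describes these libraries only.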

How the data were processed

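For each of the 6 mice the authors deposited 2 files (X1 and X2) of raw counts, in reads per annotated transcript. Alignment was by minimap2 to GRCm38, per the submitters' processing notes. The counting tool, how it placed reads that match several transcripts, whether it used strand, and what X1 and X2 stand for were not given in the sources used here. X1 and X2 were added up, so that a mouse is 1 sample. Of 61729 transcript identifiers, 61538 matched GENCODE M21 with versions ignored. The others (0.139% to 0.165% of reads) entered only transcript tests. In the shallowest library 3 reads, the limit that a count of 0 allows, equal 4.14 CPM. Intervals on read shares reflect counting error alone.

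Differences were tested in edgeR 4.0.16 under R 4.3.3, with TMM scaling, filterByExpr at a minimum count of 10 and quasi-likelihood F tests. Benjamini-Hochberg adjustment ran over all features, and the threshold was 0.05. Usage of transcripts was tested by diffSpliceDGE. The steps were checked on simulated counts. Alternatives were RLE size factors, DESeq2 1.42.0, limma-voom 3.58.1, other filters, X1 or X2 alone, protein-coding transcripts alone and leaving out each mouse.

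The 10 genes and all lists were chosen with earlier results of these data known. Named are all 10 genes, their transcripts with at least 5% of a gene's reads, listed genes past the threshold, the 2 with the smallest p in each role, 9 set cell markers, and for each of the 10 the gene of most similar pattern. Exceptions are given as such. A gene that this rule takes is not reported here.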

Additional observations from a re-analysis of the deposited data

How the results depend on the processing

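No paired analysis was possible because the mouse numbers in the labels do not recur between cold and ctrl. Of 140 log2 fold changes of the 10 genes under alternatives, 136 kept their direction, 4 reversed and 6 passed the threshold. Genes past the threshold were 0 in the reported fit, 2 with no filter, 1 with X1 alone, and 0 to 2 with a mouse left out, which gave the highest count without cold 16. Transcripts past it were 0, or 0 to 1 with a mouse left out, and usage gave 0 in all 12 alternatives. The wider list gave 2, and 1 with limma-voom, 5 with no filter, 1 with at least 10 reads in 3 mice, 0 with X1 alone, 0 with X2 alone and 1 to 4 with a mouse left out. Acsbg1 passed in all 12 alternatives that tested it. The cause of these shifts was not tested, beyond fewer reads in X1 or X2 alone and fewer mice.

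Values that reversed with a mouse left out ranged over -0.096 to 0.0058 for Lpl, -0.017 to 0.37 for Angptl4 and -0.16 to 0.043 for Cd36. By transcript the ranges were -0.11 to 0.0029 for Lpl-201, -0.014 to 0.34 for Angptl4-201, -0.16 to 1.15 for Angptl4-202, -0.19 to 0.048 for Cd36-204, -0.16 to 0.033 for Cd36-201, -0.17 to 0.043 for Cd36-203 and -0.16 to 0.019 for Cd36-202. They were -0.19 to 0.025 for Scp2 and -0.12 to 0.0020 for Pparg. With X1 alone Gpihbp1-204 gave 0.071 and Cd36-203 gave 0.039. In the reported fit Angptl4-202 was at 0.34 and Gpihbp1-204 at -0.39, so not only small values reversed. The median over the 10 genes lay between 0.098 and 0.36 with a mouse left out. Depth limits Slc27a4, Vldlr and the rare transcripts, and p-values rest on 3 mice a group.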
